A study of Mus musculus with 6 samples.

Results

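Claudins are the membrane proteins of the tight junction, and 10 of them that set the leak between cells in different parts of the kidney were followed here: Cldn1, Cldn2, Cldn3, Cldn4, Cldn5, Cldn7, Cldn8, Cldn10, Cldn16 and Cldn19. They were chosen by gene symbol from the 24422 genes of the count tables, and all 10 were present and passed the filter on low counts. RNA was sequenced from whole kidneys of wild type C57BL/6 mice at postnatal day 15, 3 controls and 3 iron-deficient (FeD) animals. The diets were given to the mothers: an iron-sufficient diet of 220 ppm iron for the controls, and a synthetic diet of about 2 to 6 ppm iron for the FeD group, from before mating through pregnancy and nursing until postnatal day 15. The FeD pups were therefore deprived of iron through the dam, in the womb and in milk, and the labels do not give the litter or sex of a pup. The question put to the data is which claudins differ between FeD and control kidneys at this age.

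Claudins cross the membrane 4 times, and their extracellular loops meet those of the neighboring cell to form either a barrier or a pore selective for charge. Each nephron segment carries its own set, so that the junctions change from leaky in the proximal tubule (PT) to tight in the collecting duct. Cldn2 forms a pore for cations and water in the PT. Cldn10 is made from alternative start exons as an anion pore and a cation pore, the latter in the thick ascending limb of Henle (TALH). Cldn16 and Cldn19 act together in the TALH, where calcium and magnesium are taken back between the cells, and loss of either causes a renal magnesium wasting disease in humans. Cldn3, Cldn4, Cldn7 and Cldn8 belong to the distal nephron and collecting duct, where Cldn4 and Cldn8 interact in a paracellular path for chloride. Cldn1 is a barrier claudin found in the kidney in the parietal cells of Bowman's capsule. Cldn5 seals the endothelium of blood vessels.

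The libraries held 13732173 to 20853293 reads counted in genes, and the floor of 3 counts corresponded to 0.144 to 0.218 CPM, the count as scaled to library size. Kidney markers were abundant in all 6 libraries. FeD kidney 2 stood apart by adrenal genes, whose 5 markers summed to 776 CPM there. They summed to 71.8 CPM in control 1 and to 7.82 to 12.5 CPM in the remaining libraries. Values without FeD kidney 2 are given wherever they change a claudin call. Skeletal muscle markers summed to 9.85 CPM in FeD kidney 1 and to 0.242 to 1.86 CPM in the other libraries. The 4 globin genes of the red cell list are listed at 0 in every library. The labels call the 3 kidneys of each group separate samples, without saying whether they shared a litter, and P values measure the spread between these samples. In whole kidney RNA, fewer cells of a type and less RNA per cell cannot be told apart.

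Of the 10 claudins, 4 were higher in FeD (Cldn1, Cldn3, Cldn4 and Cldn8), 3 were lower (Cldn5, Cldn10 and Cldn19) and 3 did not pass the test (Cldn2, Cldn7 and Cldn16). A gene was called at an adjusted P (Padj) under 0.05 in the quasi-likelihood test of edgeR, with Benjamini-Hochberg adjustment over 15145 genes. Much of the transcriptome differed between the groups by the same rule, which called 45.7% of all tested genes, 22.4% as higher and 23.3% as lower. The 7 of 10 claudins are to be read against this 45.7%, and the counts of other gene lists below against the same shares. A change of at least 2-fold was called for 2 claudins as higher, Cldn1 and Cldn3, and for 0 as lower. At that size, 10% of all tested genes were called, 4.34% as higher and 5.69% as lower. The 3 FeD kidneys did not overlap the 3 controls for 8 of the 10 claudins, against 58.1% of all tested genes. The median log2 fold change of the claudins was 0.26, beside -0.002 for all tested genes, and the values ran from -0.90 to 1.31.

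**Figure D1:**
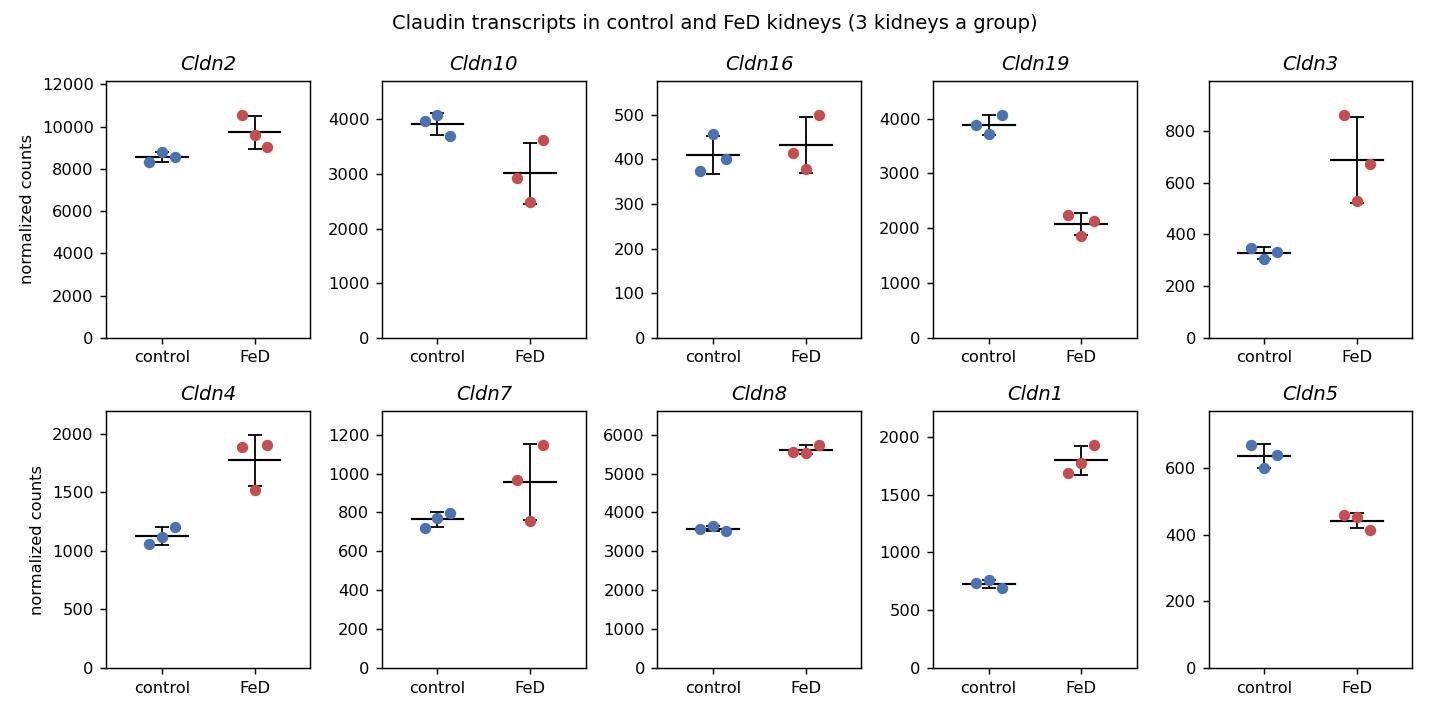
Normalized counts (vertical axis, from 0) of the 10 claudins in 3 control (blue) and 3 FeD (red) kidneys, with the group mean as a line and the SD as a bar. The groups share no range for Cldn1, Cldn2, Cldn3, Cldn4, Cldn5, Cldn8, Cldn10 and Cldn19, and they overlap for Cldn7 and Cldn16.

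Values per kidney are given below as normalized counts, which are counts scaled to a common library size. They compare kidneys within a gene and not genes with each other. Kidneys are listed in the order of their label numbers 1 to 3.

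Cldn2, the PT pore, lies on mm9 chrX:136335367-136345925. It had 8311, 8812 and 8559 normalized counts in the controls and 10576, 9629 and 9013 in FeD. Every FeD kidney was above every control, with the FeD 3 kidney close to the control range. The means were 8561 ± 251 (SD, n = 3) and 9739 ± 787 (SD, n = 3), a log2 fold change of 0.19 (SE 0.08) that did not pass the test (edgeR Padj = 0.090). The call depended on the tool and on that kidney: DESeq2 gave a log2 fold change of 0.19 with Padj = 0.041, and edgeR without FeD 3 gave 0.25 with Padj = 0.014.

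The PT markers were mostly lower. Of 8 PT marker genes, 0 were higher and 6 were lower, among them Slc5a2, the apical glucose transporter of the early PT, at a log2 fold change of -4.89 (edgeR Padj = 3.3e-06), and Slc34a1, the sodium phosphate transporter, at -2.22 (edgeR Padj = 1.7e-05). Slc5a12, a lactate transporter, did not pass the test, at 0.18 (edgeR Padj = 0.33). The log2 CPM of Cldn2 minus the mean log2 CPM of the 8 markers was -0.22, -0.26 and -0.21 in the controls and 1.47, 1.42 and 1.19 in FeD. Relative to its segment's markers, Cldn2 was thus higher in 3 of 3 FeD kidneys, by 1.59 on the log2 scale (exact permutation P = 0.10, two-sided, which is the smallest that 3 against 3 kidneys allow). Over the 12 such comparisons made for the claudins, adjustment gave 0.15 for each at this floor. The part of the marker change in the Cldn2 result was not tested.

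Cldn10 lies on chr14:119187093-119274711 with 4 annotated transcripts, and the gene counts add up its alternative starts, so the anion and cation forms were not separated. It had 3974, 4088 and 3694 normalized counts in the controls and 2917, 2494 and 3613 in FeD. The FeD 3 kidney was just under the lowest control. The mean fell from 3919 ± 203 (SD, n = 3) to 3008 ± 565 (SD, n = 3), a log2 fold change of -0.38 (SE 0.12; edgeR Padj = 0.036). This call held without FeD 3 and was lost when any of the other 5 kidneys was left out. Without FeD 2, the kidney highest in adrenal genes, the value was -0.24 (edgeR Padj = 0.098), and over all leave-outs it ran from -0.52 to -0.24.

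Cldn16, a TALH claudin on chr16:26463221-26482851, showed no shift that the test could call. Its normalized counts were 373, 457 and 400 in the controls and 415, 379 and 501 in FeD, and the groups overlapped. The log2 fold change was 0.08 (SE 0.13; edgeR Padj = 0.64), and it was -0.03 without FeD 3.

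Cldn19, the partner of Cldn16, lies on chr4:118928019-118935043 and was the most lowered of the 10. It had 3877, 3712 and 4074 normalized counts in the controls and 2243, 1848 and 2137 in FeD. All FeD kidneys were far under the controls. The mean fell from 3887 ± 181 (SD, n = 3) to 2076 ± 205 (SD, n = 3), which made the controls 1.87-fold higher (log2 fold change -0.90, SE 0.08; edgeR Padj = 0.00013). The call held in all 12 alternative fits, with values from -0.95 to -0.81. An unnamed gene model on the opposite strand, Gm12927, overlaps 2.11% of its exon bases.

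Both TALH partners were then compared within each kidney. The ratio of Cldn19 to Cldn16 raw counts within a kidney, which needs no scaling between libraries, was 10.4, 8.12 and 10.2 in the controls and 5.40, 4.87 and 4.27 in FeD. The lowest control ratio was above the highest FeD ratio, and the difference was -0.98 on the log2 scale (exact permutation P = 0.10, the smallest possible; 0.11 adjusted over 8 ratios). Cldn10 was also lower relative to Cldn16 in 3 of 3 FeD kidneys. The Cldn10 to Cldn16 ratio was 10.7, 8.95 and 9.23 in the controls and 7.03, 6.58 and 7.22 in FeD, a log2 difference of -0.47 (exact permutation P = 0.10; 0.11 adjusted). These 8 ratios between claudins were chosen after the values were seen.

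Of the TALH markers, Ppp1r1a, a phosphatase inhibitor, was lower at a log2 fold change of -0.71 (edgeR Padj = 0.0026). Umod, the uromodulin gene, at -0.40 (edgeR Padj = 0.065) and Slc12a1, the sodium-potassium-chloride cotransporter, at 0.13 (edgeR Padj = 0.59) did not pass the test. Cldn19 minus the mean of the 5 genes of the TALH list, in log2 CPM, was -2.08, -2.18 and -2.11 in the controls and -2.73, -2.73 and -3.00 in FeD, a difference of -0.70 that every FeD kidney showed (exact permutation P = 0.10; 0.15 adjusted). For Cldn16 the same difference was 0.28, also without overlap between groups (exact permutation P = 0.10; 0.15 adjusted). For Cldn10 it was -0.19 and the groups overlapped (exact permutation P = 0.20, 0.27 adjusted). Against the PT markers the Cldn10 difference was 1.01 (exact permutation P = 0.10, 0.15 adjusted). Cldn10 itself was lower in FeD, and this value is positive because the mean of the PT markers fell further, by -1.41.

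**Figure D2:**
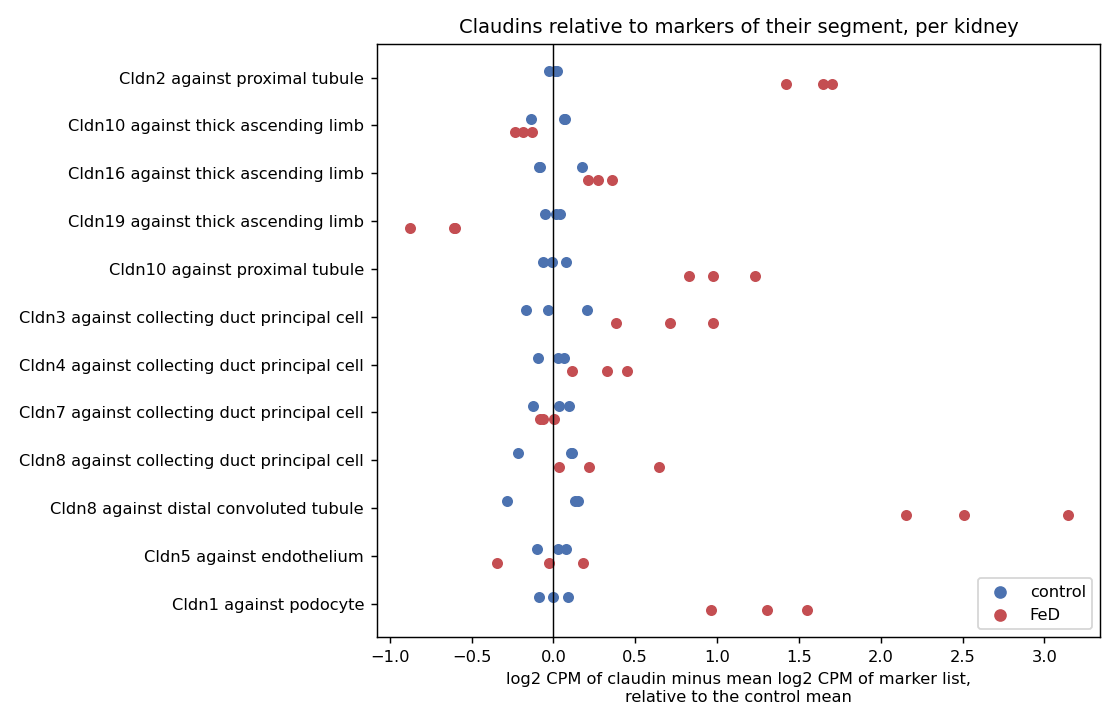
Log2 CPM of a claudin minus the mean log2 CPM of the marker list of its segment, each shifted so that the control mean is 0 (horizontal axis), for 3 control (blue) and 3 FeD (red) kidneys. FeD points lie right of all controls for Cldn2 and Cldn10 against PT markers, for Cldn16 against TALH markers, for Cldn3 and Cldn4 against principal cell markers, for Cldn8 against distal convoluted tubule markers and for Cldn1 against podocyte markers, left of all controls for Cldn19, and the groups overlap for Cldn5, for Cldn7, for Cldn10 against TALH markers and for Cldn8 against principal cell markers.

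Cldn3 and Cldn4, both of the distal nephron and collecting duct, rose. They lie 39.28 kb apart on chromosome 5 on opposite strands, at chr5:135462084-135463342 and chr5:135420996-135422804. Cldn3 had 348, 303 and 334 normalized counts in the controls and 865, 531 and 672 in FeD. All FeD kidneys were above the controls, but they differed widely among themselves. The mean rose from 328 ± 22.9 (SD, n = 3) to 689 ± 168 (SD, n = 3), 2.10-fold (log2 fold change 1.07, SE 0.17; edgeR Padj = 0.0014). It stayed called without each kidney in turn, although without FeD 1 the log2 fold change was 0.89, under 2-fold. A gene on the opposite strand, Wbscr25, overlaps 3.18% of the Cldn3 exon bases.

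Cldn4 had 1058, 1117 and 1206 normalized counts in the controls and 1893, 1520 and 1909 in FeD. The FeD 2 kidney was the lowest of its group, as for Cldn3, and still above all controls. The mean rose from 1127 ± 74.6 (SD, n = 3) to 1774 ± 220 (SD, n = 3), 1.57-fold (log2 fold change 0.66, SE 0.10; edgeR Padj = 0.0012).

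Cldn8, at chr16:88561073-88563428, had the smallest spread within groups of the 10, relative to its mean. It had 3563, 3658 and 3520 normalized counts in the controls and 5562, 5532 and 5742 in FeD. The mean rose from 3581 ± 70.6 (SD, n = 3) to 5612 ± 113 (SD, n = 3), 1.57-fold (log2 fold change 0.65, SE 0.06; edgeR Padj = 0.00013). It stood in a similar ratio to Cldn4 in every kidney. The raw count ratio of Cldn8 to Cldn4 was 2.92 to 3.37 in the controls and 2.94 to 3.64 in FeD, a mean log2 difference of 0.0007 (exact permutation P = 1.0).

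Cldn7, at chr11:69778281-69781387, was not called. It had 720, 773 and 800 normalized counts in the controls and 966, 757 and 1149 in FeD, and the FeD 2 kidney lay inside the control range. The log2 fold change was 0.33 (SE 0.14; edgeR Padj = 0.088). Without FeD 2 it was 0.49 and passed (edgeR Padj = 0.0054). Relative to Cldn4 in the same kidney, Cldn7 was lower in 3 of 3 FeD kidneys. The ratio was 0.680, 0.692 and 0.663 in the controls and 0.510, 0.498 and 0.602 in FeD (exact permutation P = 0.10; 0.11 adjusted).

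Principal cell markers of the collecting duct were mostly higher as well. Of 7, 4 were higher, 1 was lower and 2 did not pass, and Aqp2 and Aqp3, the water channels of these cells, had log2 fold changes of 1.13 (edgeR Padj = 0.0093) and 1.10 (edgeR Padj = 0.0023). The summed level of the list was 1251 to 1758 CPM in the controls and 1875 to 3219 CPM in FeD. Relative to the mean log2 level of these 7 genes, Cldn3 was higher in FeD by 0.69 and Cldn4 by 0.30, both without overlap (exact permutation P = 0.10; 0.15 adjusted), Cldn8 was higher by 0.30 with overlap (exact permutation P = 0.30; 0.36 adjusted), and Cldn7 differed by -0.05 (exact permutation P = 0.60; 0.65 adjusted). These values depend on how the list is summed: against the summed CPM, in which Aqp2 weighs most, the difference was 0.18 for Cldn3 and -0.21 for both Cldn4 and Cldn8. The Cldn8 value also moved with single kidneys, to 0.12 without FeD 2, 0.19 without control 3 and 0.43 without FeD 3. Whether the rise of Cldn3, Cldn4 and Cldn8 goes with the share of principal cells was not tested. Urothelium, which also makes Cldn3, Cldn4 and Cldn7, could be part of a whole kidney sample, and 4 of its 6 markers were lower and 0 higher. Of 6 intercalated cell markers, 2 were higher and 4 lower.

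Cldn8 is also made in the distal convoluted tubule (DCT), whose markers were lower. Of 4 DCT markers, 0 were higher and 3 were lower, with Slc12a3, the thiazide-sensitive cotransporter, at -1.56 (edgeR Padj = 0.00026). Cldn8 minus the mean of the DCT markers was 0.45, 0.47 and 0.03 in the controls and 2.83, 2.47 and 3.46 in FeD. The difference was 2.60 (exact permutation P = 0.10, 0.15 adjusted). Its size depends on how the list is summed, since the log2 fold changes of the 4 markers ran from -5.08 to -0.59. Against their summed CPM the difference was 1.82.

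Cldn1, the barrier claudin, rose the most of the 10. Its gene lies on chr16:26356728-26371927, 91.3 kb from Cldn16 on the opposite strand. It had 734, 757 and 688 normalized counts in the controls and 1685, 1771 and 1932 in FeD, with no FeD kidney near the control range. The mean rose from 726 ± 35.2 (SD, n = 3) to 1796 ± 125 (SD, n = 3), 2.47-fold (log2 fold change 1.31, SE 0.07; edgeR Padj = 2.1e-05). The value stayed between 1.26 and 1.37 in the 12 alternative fits. Podocyte genes, the nearest glomerular list because no list of parietal cells was set, mostly did not pass the test. Of these, 1 of 5 was higher (Wt1, log2 fold change 0.73, edgeR Padj = 0.020) and 0 were lower. Cldn1 minus this list was higher by 1.27 (exact permutation P = 0.10; 0.15 adjusted).

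Cldn5, of vascular endothelium, fell. Its gene lies on chr16:18776940-18778353. It had 670, 601 and 638 normalized counts in the controls and 459, 453 and 415 in FeD, without overlap. The mean fell from 636 ± 34.7 (SD, n = 3) to 442 ± 23.8 (SD, n = 3), so that the controls were 1.44-fold higher (log2 fold change -0.53, SE 0.08; edgeR Padj = 0.0015). Other endothelial genes fell with it: 5 of 7 were lower and 0 were higher, with Emcn at -1.04 (edgeR Padj = 0.00015) and Kdr, a receptor for vascular growth factor, at -0.59 (edgeR Padj = 0.0026). Relative to these 7 genes, Cldn5 was -2.07, -2.25 and -2.12 in the controls and -1.97, -2.17 and -2.49 in FeD, a difference of -0.06 with overlap (exact permutation P = 0.80; 0.80 adjusted).

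Levels were compared between claudins only per exon length, as CPM per kilobase. In the controls the order was Cldn2, Cldn8, Cldn10, Cldn19, Cldn4, Cldn5, Cldn7, Cldn16, Cldn3 and Cldn1, from 144 down to 12.5 CPM per kilobase. The kidneys of neighbors in this order overlapped only for Cldn8 with Cldn10 and for Cldn7 with Cldn16. In FeD the order was Cldn2, Cldn8, Cldn10, Cldn4, Cldn1, Cldn3, Cldn7, Cldn19, Cldn16 and Cldn5, from 164 down to 17.5 CPM per kilobase. Here Cldn10 overlapped Cldn4, the run from Cldn1 through Cldn3 and Cldn7 to Cldn19 overlapped from neighbor to neighbor, and so did Cldn16 and Cldn5. Cldn1 went from the last place to the fifth and Cldn19 from the fourth to the eighth.

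The summed level of the 10 claudins was 486, 500 and 491 CPM per kilobase in the controls and 594, 530 and 589 in FeD. It was higher in 3 of 3 FeD kidneys (exact permutation P = 0.10). Within that sum, the share of Cldn2 overlapped between groups, at 29.3% ± 0.446 (SD, n = 3) and 28.8% ± 2.63 (SD, n = 3). Cldn8 went from 17.3% ± 0.217 (SD, n = 3) to 23.4% ± 1.29 (SD, n = 3), while Cldn10 went from 16.9% ± 0.808 (SD, n = 3) to 11.2% ± 1.65 (SD, n = 3). Cldn19 went from 10.4% ± 0.578 (SD, n = 3) to 4.77% ± 0.191 (SD, n = 3). Cldn1 went from 2.54% ± 0.112 (SD, n = 3) to 5.44% ± 0.474 (SD, n = 3). The shares of Cldn1, Cldn3, Cldn4 and Cldn8 were higher, and those of Cldn5, Cldn10 and Cldn19 lower, in 3 of 3 FeD kidneys (exact permutation P = 0.10 each; 0.14 adjusted over 10 shares). These are shares of transcript in whole kidney, not of protein in a junction.

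**Figure D3:**
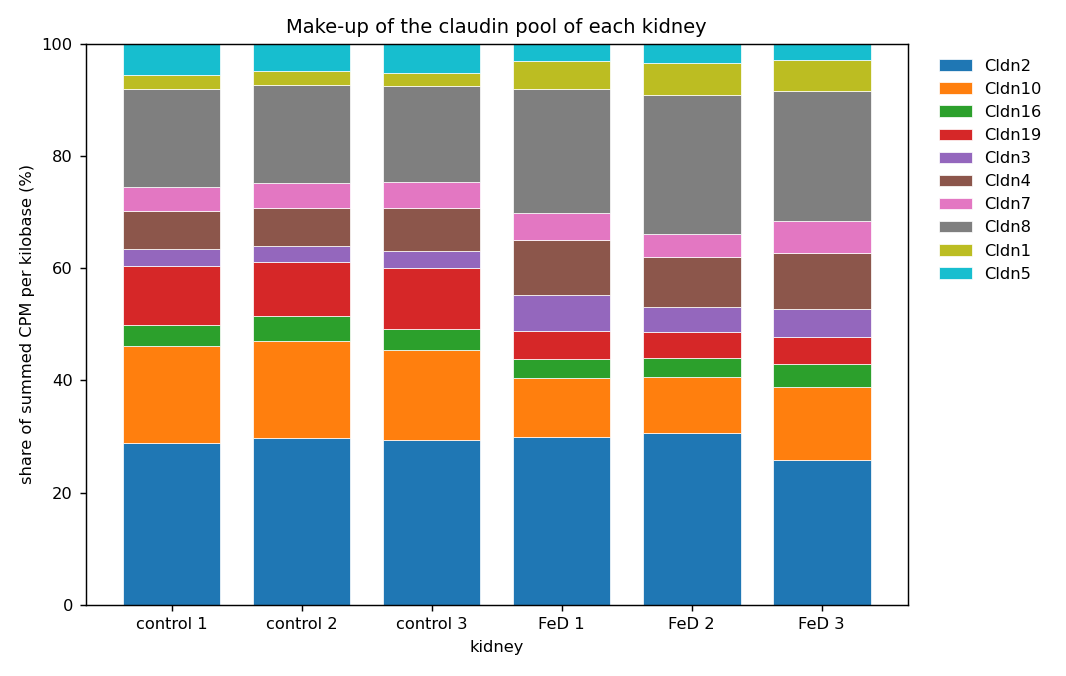
Share of each claudin in the summed CPM per kilobase of the 10 genes (vertical axis, percent) for each of the 6 kidneys. Cldn2 makes up 25.8% to 30.6% in every kidney, the Cldn8 block is larger in FeD (22.3% to 24.8%, against 17.0% to 17.4% in controls), and the Cldn19 block is smaller (4.58% to 4.96%, against 9.75% to 10.9%).

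The 250 bases before the annotated start are shown for Cldn3 and Cldn4, the neighbors that both rose, for Cldn16 and Cldn19, the TALH partners of which Cldn19 alone was called, and for both starts of Cldn10, whose counts were summed. They are RefSeq windows of build GRCm38.p6, whose coordinates differ from the mm9 ones given for the genes, written 5′ to 3′ in the direction of the gene. Capitals mark ACGTG, a form of the core of the hypoxia response element, on the written strand (or CACGT where it lies on the other). The form GCGTG was neither searched nor marked, and it stands in the windows of Cldn4 and of both Cldn10 starts.
Cldn3, chr5:134985964-134986213, plus strand: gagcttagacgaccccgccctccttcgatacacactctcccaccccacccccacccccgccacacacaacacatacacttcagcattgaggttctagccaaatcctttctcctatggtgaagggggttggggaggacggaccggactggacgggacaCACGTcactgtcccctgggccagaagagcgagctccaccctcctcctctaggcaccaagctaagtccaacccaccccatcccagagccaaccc
Cldn4, chr5:134946935-134947184, minus strand: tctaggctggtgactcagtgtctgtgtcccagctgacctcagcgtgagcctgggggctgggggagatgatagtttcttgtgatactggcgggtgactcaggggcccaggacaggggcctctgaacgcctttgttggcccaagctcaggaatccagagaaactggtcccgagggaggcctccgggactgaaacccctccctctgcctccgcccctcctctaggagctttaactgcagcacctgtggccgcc
Cldn16, chr16:26462885-26463134, plus strand: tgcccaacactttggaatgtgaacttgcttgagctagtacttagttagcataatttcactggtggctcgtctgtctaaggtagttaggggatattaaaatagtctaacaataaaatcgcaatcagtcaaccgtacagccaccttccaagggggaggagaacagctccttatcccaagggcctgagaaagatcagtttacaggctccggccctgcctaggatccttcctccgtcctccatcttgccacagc
Cldn19, chr4:119255191-119255440, plus strand: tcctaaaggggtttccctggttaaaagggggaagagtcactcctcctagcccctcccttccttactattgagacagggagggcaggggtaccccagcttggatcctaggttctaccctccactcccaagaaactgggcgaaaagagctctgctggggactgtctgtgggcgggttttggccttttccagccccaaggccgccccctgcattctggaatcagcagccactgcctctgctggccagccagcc
Cldn10, upstream start, chr14:118787621-118787870, plus strand: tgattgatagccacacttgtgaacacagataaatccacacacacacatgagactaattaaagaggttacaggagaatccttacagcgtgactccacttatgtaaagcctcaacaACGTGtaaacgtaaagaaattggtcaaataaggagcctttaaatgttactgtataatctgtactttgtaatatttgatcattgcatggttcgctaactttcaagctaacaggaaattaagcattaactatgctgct
Cldn10, downstream start, chr14:118854700-118854949, plus strand: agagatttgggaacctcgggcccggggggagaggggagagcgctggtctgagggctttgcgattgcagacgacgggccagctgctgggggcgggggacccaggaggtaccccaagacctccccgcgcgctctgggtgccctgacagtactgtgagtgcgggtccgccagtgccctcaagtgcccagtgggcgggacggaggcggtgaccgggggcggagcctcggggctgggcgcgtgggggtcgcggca

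The ACGTG motif, searched on both strands, was found in 2 of the 12 windows of the 9 claudins that had 1 or more in the RefSeq table: in Cldn3, 93 bases before the start, and at the upstream start of Cldn10, 136 bases before it. Of all 32851 promoter windows of this length, 16.6% held it. Windows with GCGTG, the other form of the core, were not counted. CACGTG, which contains ACGTG, was in 0 of the 12 windows and in 6.02% of all. The grainyhead motif AACCNGTT was in 1, that of Cldn5 (1.79% of all), and GTTAAT, part of the motif of the HNF1 factors, was in 2, those of Cldn1 and of the upstream Cldn10 start (6.43% of all). Cldn8 had no window. The windows differed in base composition, from 36.0% GC at the upstream Cldn10 start to 72.4% GC at the downstream one. A match describes letters only.

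Beside the 10, the tables held 15 genes named Cldn with a number and at most 1 letter, of which 7 passed the filter. Cldn6 and Cldn23 were higher, Cldn11 was lower, and Cldn9, Cldn12, Cldn15 and Cldn22 did not pass the test. The share called among all tested genes was 45.7%. Cldn11, which seals myelin and the Sertoli cell barrier, had 247, 237 and 218 normalized counts in the controls and 38.0, 45.4 and 32.8 in FeD, and the controls were 6.08-fold higher (log2 fold change -2.61, SE 0.16; edgeR Padj = 3.1e-05). That is a larger change than any of the 10 nephron claudins showed. Cldn6, a claudin of embryonic epithelia, had 98.7, 106 and 103 normalized counts in the controls and 153, 155 and 166 in FeD (log2 fold change 0.62, SE 0.13; edgeR Padj = 0.0049). Cldn23 had under 33 normalized counts in any kidney and a log2 fold change of 0.84 (SE 0.26; edgeR Padj = 0.029), and it was called in only part of the alternative fits. Cldn14, which blocks the Cldn16 and Cldn19 channel in the TALH, did not pass the filter, with 2.21 to 5.34 normalized counts in the controls and 4.32 to 11.7 in FeD. A difference in Cldn14 was not detectable at this depth. Cldn34c1, whose symbol falls outside that naming pattern, was also tested, with 45 to 72 raw counts in the controls, 50 to 85 in FeD and a log2 fold change of 0.34 (SE 0.29; edgeR Padj = 0.37).

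**Figure D4:**
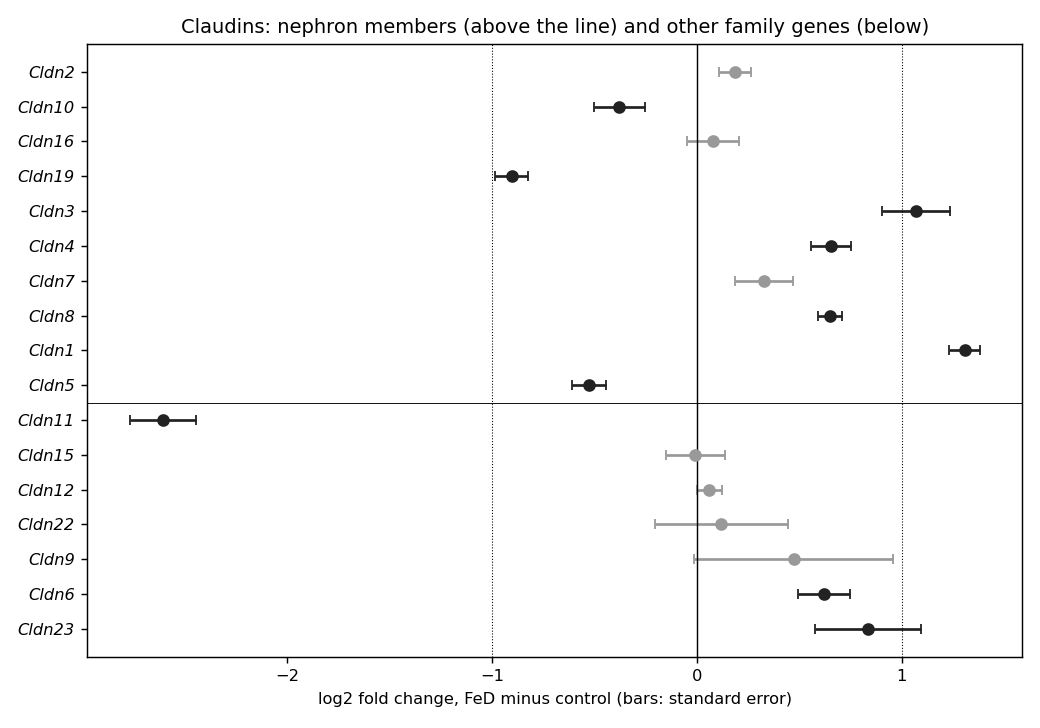
Log2 fold change, FeD minus control (horizontal axis, bars are standard errors), of the 10 nephron claudins above the line and 7 other tested claudins under it (Cldn34c1, at 0.34, is not plotted). Black points passed Padj under 0.05, gray points did not, dotted lines mark 2-fold, and Cldn11 at -2.61, Cldn1 at 1.31 and Cldn3 at 1.07 lie beyond them.

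Claudins are held in the junction by scaffold and partner proteins. Of 26 such genes tested, 5 were higher, 5 were lower and 16 did not pass, beside 45.7% of all tested genes called. Their log2 fold changes had a median of 0.08, and 0 reached 2-fold. Among those called, the rise was largest for Marveld2 (tricellulin, which closes the corners where 3 cells meet) at 0.57 (edgeR Padj = 0.0028), Ocln (occludin) at 0.48 (edgeR Padj = 0.0030), Prkci, an atypical protein kinase C, at 0.40 (edgeR Padj = 0.0045) and F11r (the adhesion molecule JAM-A) at 0.20 (edgeR Padj = 0.039). The largest falls among those called were of Magi3, a scaffold, at -0.78 (edgeR Padj = 0.0057), Crb3, of the Crumbs polarity complex, at -0.50 (edgeR Padj = 0.0063), Lnx1, a ubiquitin ligase that binds claudins, at -0.40 (edgeR Padj = 0.0068) and Prkcz, the other atypical kinase, at -0.39 (edgeR Padj = 0.0022). The scaffold Tjp1 (ZO-1) had 3100, 3067 and 2956 normalized counts in the controls and 3310, 3458 and 4376 in FeD and did not pass (edgeR Padj = 0.051).

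Of 9 genes known to act on claudins, 2 were higher, 3 were lower and 4 did not pass. Among all tested genes, 22.4% were higher and 23.3% lower. Casr, the calcium-sensing receptor that controls claudins of the TALH, had 986, 961 and 946 normalized counts in the controls and 1413, 1253 and 1364 in FeD (log2 fold change 0.48, SE 0.07; edgeR Padj = 0.00093). Tfcp2l1, a transcription factor of the collecting duct, was higher by 0.34 (edgeR Padj = 0.012). Wnk4, a kinase that phosphorylates claudins, had 7944, 8274 and 9903 normalized counts in the controls and 6195, 5065 and 4508 in FeD (log2 fold change -0.73, SE 0.13; edgeR Padj = 0.0028). Vdr, the vitamin D receptor, had a log2 fold change of -0.24 (edgeR Padj = 0.027), and Lnx1, given above, is the other gene that was lower. Klhl3, which targets Cldn8 for degradation, had a log2 fold change of -0.16 (edgeR Padj = 0.29). Grhl2 at 0.17 (edgeR Padj = 0.13) and Ovol2 at 0.05 (edgeR Padj = 0.86), which control claudins of the collecting duct epithelium, and Hnf4a, of the PT, at -0.24 (edgeR Padj = 0.19), did not pass either.

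For each claudin, the genes of most similar course over the 6 kidneys were sought among 12933 genes with at least 50 normalized counts on average. Likeness was the root mean square difference of log2 CPM after each gene was centered on its own mean, so that 0 is an identical course. The nearest to Cldn1 was Ncoa4, the receptor that brings ferritin to breakdown, at 0.033, with a log2 fold change of 1.33 (edgeR Padj = 1.6e-05), then Heca at 0.051. The nearest to Cldn4 were Cbr3 at 0.046 and Ildr1, a protein of tricellular junctions, at 0.053. The nearest to Cldn8 were Ssh2 and Cast, both at 0.023, and to Cldn19 they were Tnfaip2 at 0.033 and Nudt19 at 0.040. Cldn7 was nearest to Gprc5a at 0.037 and Muc1, an epithelial mucin, at 0.055.

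Cldn2 was nearest to Xab2 at 0.017 and Carm1 at 0.021, Cldn10 to Dnm3 at 0.031 and Fam187b at 0.035, and Cldn16 to Elk1 at 0.044 and Psmd11 at 0.051. Cldn5 was nearest to Ttc30b at 0.042 and Ccnjl at 0.043. Cldn3 had no gene as near, with Slx4 at 0.106 and Ppp1r3e at 0.108. None of the 10 had another of the 10 among its 100 nearest genes. The nearest member pair was Cldn4 and Cldn8, at 0.116, where Cldn8 ranked 109 among the neighbors of Cldn4. With 6 kidneys, every gene that differs between the groups by the same amount comes near, so these names describe a course and nothing more.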

How the data were processed

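Whole kidneys of 3 control and 3 FeD mice were profiled by poly-A RNA-Seq. Per the labels and methods, the authors used TruSeq kits and HiSeq2000, CASAVA 1.8.2, Trimmomatic, TopHat2 2.0.11 on mm9 and HTSeq. They deposited raw counts per gene, 1 table per group. The annotation, counting mode and strand setting are not given in the sources used here, so reads of overlapping genes on opposite strands may not be separable. No 100-base window of any of the 10 claudins occurred in the protein-coding transcripts of another gene. Noncoding transcripts and pseudogenes were not searched.

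Genes were filtered with filterByExpr (15145 of 24422 kept), scaled by TMM, and tested in edgeR 4.0.16 (R 4.3.3; quasi-likelihood, group alone, Benjamini-Hochberg adjustment). Normalized counts are CPM times the mean effective library size of 17857306. Log2 CPM used a prior count of 2. Exact two-sided permutation tests (scipy 1.17.1) compared single values. DESeq2 1.42.0, other scalings, filters, a replicate block and leaving out each kidney were alternatives. Gene positions and exon lengths came from GENCODE vM1. The members and lists were chosen with earlier results of these data known. Named genes were all 10 claudins, all other tested claudins, up to 4 junction genes with the largest change each way, all regulators, and the 2 nearest genes per claudin. Tjp1 and marker genes were named beside results, and 1 marker is not reported here. The libraries were checked against each other within each group, and none was a duplicate. The floor of 3 counts concerns counting error only, whereas the SDs and SEs include the spread between kidneys.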

Additional observations from a re-analysis of the deposited data

How the results depend on the processing

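Cldn1, Cldn3, Cldn4, Cldn5, Cldn8 and Cldn19 kept their direction and call in all 12 alternative fits. Cldn2 was called by DESeq2 (0.1945, Padj = 0.041) and without FeD 3, with a range of 0.1394 to 0.2509 when each kidney was left out. The ranges were 0.188 to 0.4903 for Cldn7, -0.5207 to -0.2416 for Cldn10, and -0.0308 to 0.1829 for Cldn16, whose sign turned without FeD 3 (-0.0308). Leaving out a kidney gave 1 to 2 claudins higher at 2-fold (1 without FeD 1), 1 to 2 other claudins higher, and 3 to 8 junction genes higher and 4 to 8 lower. Without FeD 2 or without FeD 3, 8 junction genes were higher, and 3 were when any control was left out. With no filter or with DESeq2, 1 other claudin was higher, and with no filter 3 junction genes were. The cause of these shifts was not tested, and leaving out a kidney also makes a group smaller.

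The replicate numbers did not pair the kidneys: deviations of same-numbered kidneys correlated at -0.294, -0.008 and -0.138. With the replicate block, 6444 genes were called in place of 6924, 1 other claudin and 3 junction genes were higher, and no call among the 10 claudins changed.

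With marker lists summed as CPM, the difference was 1.4353 for Cldn2, -0.2901 for Cldn10 against TALH and 0.855 against PT, 0.1846 for Cldn3, -0.211 for Cldn4 (reversed) and for Cldn8 against principal cells, -0.5541 for Cldn7 and 1.8206 for Cldn8 against DCT. Leaving out a kidney gave -0.1106 to 0.0006 for Cldn7 against principal cells and -0.1852 to 0.0771 for Cldn5 against endothelium. Without length scaling, the change in share (percentage points) was 3.7498 for Cldn1, 1.004 for Cldn2, 1.2102 for Cldn3, 1.9619 for Cldn4, -0.9873 for Cldn5 and -8.4305 for Cldn19. Leaving out a kidney gave -1.3789 to 1.0298 for the Cldn2 share and -0.0694 to 0.6819 for that of Cldn7. With 3 kidneys a group no permutation test could go under 0.10, and claudins with few counts, such as Cldn14, were not testable.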
